A study of Mus musculus with 6 samples.

Results

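Grap and 8 genes of Ras signalling, its paralogue Grb2 and the partner proteins Shc1, Sos1, Sos2, Gab1, Gab2, Rasa1 and Nras, were followed by RNA sequencing in Raw264.7, a line of mouse macrophages transformed by Abelson murine leukaemia virus. All 9 were found by gene symbol among the 16171 genes of the deposited count table. Libraries came from cells on titanium with a calcium phosphate nanowire coating (THCaP, n = 3) and from control cells on titanate nanowires, grown on the metal by treatment with alkali and heat (TH, n = 3). Cells of both surfaces were wild type (WT in the labels), were left on the surface for 12 h, stimulated for 2 h with lipopolysaccharide at 1 µg/mL (LPS, the outer membrane lipid of bacteria sensed by a Toll-like receptor) and kept for another 1 d, so no library shows expression without LPS. All libraries are of 1 cell line, and the labels do not say whether those of a surface came from separate cultures. Members were chosen by symbol with their expression differences between these surfaces, in these same libraries, already known. Their fold changes are therefore given as a description, without a p-value.

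Ras proteins are small GTPases that relay signals from receptors at the plasma membrane to the Raf, MEK and ERK kinases. An activated receptor tyrosine kinase is bound by Grb2, directly or through Shc1, and Grb2 brings the exchange factors Sos1 and Sos2 to the membrane, where they load Ras with GTP. Rasa1 (p120 RasGAP) ends the signal by stimulating GTP hydrolysis. Grb2 also carries the docking proteins Gab1 and Gab2, which recruit the phosphatase Shp2 and phosphoinositide 3-kinase. Grap has the same layout as Grb2, an SH2 domain between a pair of SH3 domains, and is best known from lymphoid cells. In macrophages the receptor for colony-stimulating factor 1 (Csf1r) signals through Grb2.

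Total counts ran from 28000099 to 30317108 per library, and 11480 genes had enough counts to be tested. The first principal component of log2 expression held 60.5% of the variance and placed THCaP libraries at 5.17 to 35.9 and TH libraries at −22.2 to −16.3, with THCaP replicate 3 nearest to TH. Macrophage markers summed to 3089 to 3332 CPM (counts scaled to a common library total) in THCaP libraries and 2944 to 3439 CPM in TH libraries, and all 10 were tested. Of these, Lyz2 was called higher (edgeR adjusted p = 0.0223) and 9 were not called. B cell markers summed to at most 1.24 CPM in THCaP and 1.54 CPM in TH libraries. The T cell list summed to 3.65 to 5.15 CPM in THCaP and 4.43 to 5.78 CPM in TH libraries, nearly all of it Lck. Cd3e had 1 count over all libraries. Neutrophil markers stayed at or under 0.036 CPM in every library and stromal markers at or under 0.35 CPM. Endothelial markers summed to 2.91 to 4.91 CPM in THCaP and 5.23 to 6.42 CPM in TH libraries, most of it Pecam1, which was not called (edgeR adjusted p = 0.0613). The part of these markers in the values below was not tested.

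Grap lies on chromosome 11 at 61653265 to 61672784, plus strand, and Grb2 on the same chromosome at 115644045 to 115708597, minus strand (GRCm38, GENCODE vM21, both protein coding). Of the partner genes, Shc1 and Nras lie on chromosome 3, Gab2 on 7, Gab1 on 8, Sos2 on 12, Rasa1 on 13 and Sos1 on 17. Both reading frames have 217 codons before the stop. Aligned end to end, the coding sequences were identical at 62.5% of positions, with 414 identical bases, 232 mismatches and 16 gap positions. The first 120 coding bases, which open the first SH3 domain, are shown because they tell how far reads of the paralogues can be told apart. Capitals mark the 38 positions at which they differ, counted from the A of the start codon.
Grap: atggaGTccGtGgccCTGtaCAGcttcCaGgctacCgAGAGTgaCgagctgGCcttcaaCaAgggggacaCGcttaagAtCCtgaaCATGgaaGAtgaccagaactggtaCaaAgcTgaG
Grb2: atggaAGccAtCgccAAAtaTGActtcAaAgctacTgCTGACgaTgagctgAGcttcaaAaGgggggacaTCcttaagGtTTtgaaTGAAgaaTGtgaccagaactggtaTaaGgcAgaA
The longest run shared by any Grap transcript and any Grb2 transcript was 15 bases, within this stretch at positions 96 to 110. No 50-base word was therefore common to both genes. Of the 50-base words of Grap, 0.172% also occurred in transcripts of another annotated gene, against 7.54% for Grb2, 7.09% for Shc1, 4.29% for Gab1, 1.02% for Sos2, 0.733% for Nras and 0% for Sos1, Gab2 and Rasa1. Grap shares 4 exonic bases with Slc5a10 on the opposite strand, and Slc5a10 had at most 6 counts in a library.

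Grap was the member with the largest difference between the surfaces. Scaled by library size and composition (TMM, edgeR), it stood at 33.0, 30.4 and 38.5 CPM in THCaP replicates 1, 2 and 3, against 82.9, 95.3 and 89.3 CPM in TH replicates 1, 2 and 3. Every THCaP library lay below every TH library, and the highest THCaP value was under the lowest TH value by more than the whole range within either surface. The means were 34.0 ± 4.11 CPM on THCaP and 89.2 ± 6.21 CPM on TH (SD, n = 3 each), 2.62-fold lower on THCaP (log2 fold change −1.39, SE 0.10). These values rest on 910 to 1129 reads per THCaP library and 2480 to 2645 reads per TH library. In whole-culture RNA, fewer cells expressing a gene and less RNA per cell cannot be told apart. Of the 11480 tested genes, 55 (0.479%) had a lower log2 fold change than Grap. Leaving out each library in turn gave log2 fold changes of −1.49 to −1.32 for Grap.

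Grb2, the paralogue, stood at 217, 229 and 222 CPM in THCaP replicates 1 to 3, against 234, 239 and 242 CPM in TH replicates 1 to 3. The groups did not overlap on this scale, but the difference was small, with means of 223 ± 6.07 CPM on THCaP and 238 ± 3.64 CPM on TH (log2 fold change −0.10, SE 0.07), and as FPKM (fragments per unit of gene length and of library total) the groups overlapped. Shc1, which links receptors to Grb2, went the other way, at 171, 170 and 167 CPM in THCaP replicates 1 to 3, against 158, 153 and 156 CPM in TH replicates 1 to 3. All THCaP libraries lay above all TH libraries for Shc1, by a log2 fold change of 0.12 (SE 0.07). Of these member adaptors, Grap thus differed by a multiple and Grb2 and Shc1 each by less than 10%, at −6.64% and 8.53% on THCaP relative to TH.

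**Figure D1:**
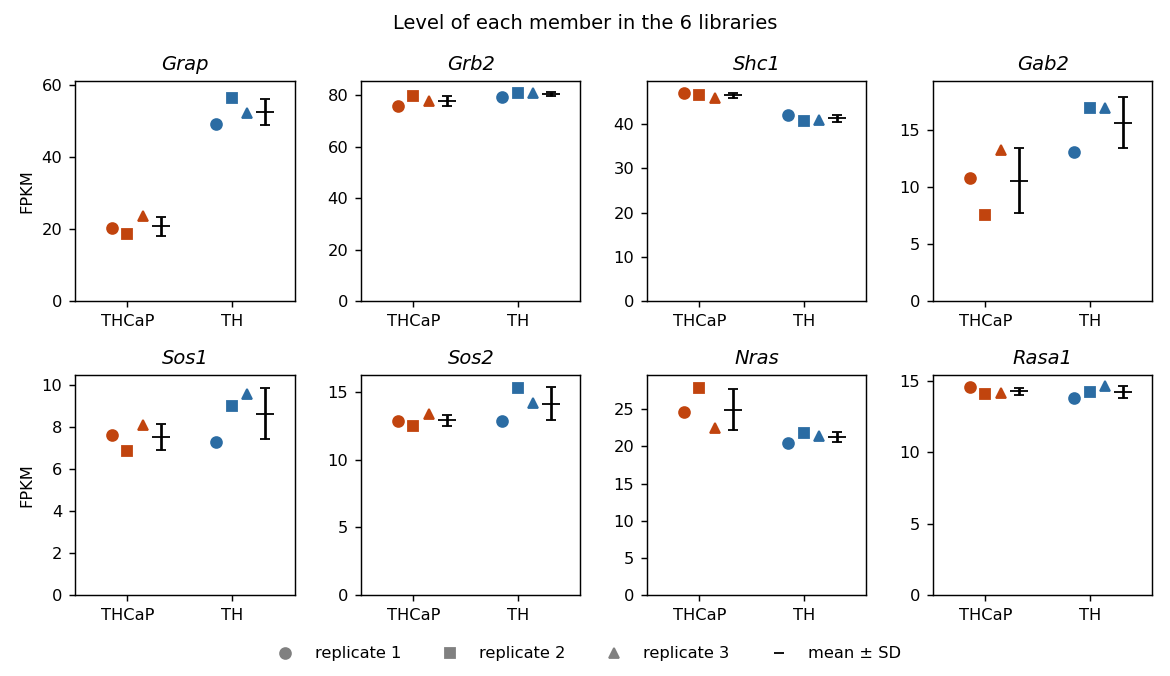
FPKM of the 8 members with more than single counts in THCaP libraries (left of each panel) and TH libraries (right), 3 each, with marker shapes for the replicates and bars for mean ± SD. Grap lies between 18.6 and 23.6 FPKM in THCaP libraries and between 49.1 and 56.3 FPKM in TH libraries, while Grb2 and Rasa1 lie at similar heights on both surfaces.

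Gab2, the docking protein with reads in this line, was the only other member with a difference past the call rule applied to all genes. It stood at 63.8, 45.0 and 78.4 CPM in THCaP replicates 1, 2 and 3, against 80.0, 104 and 104 CPM in TH replicates 1, 2 and 3. The groups did not overlap, but THCaP replicate 3 and TH replicate 1 were close to each other. Means were 62.4 ± 16.7 CPM on THCaP and 96.0 ± 13.9 CPM on TH, 1.54-fold lower on THCaP (log2 fold change −0.62, SE 0.18). The spread of Gab2 among THCaP libraries (coefficient of variation 26.8%) was the largest of the 8 tested members, against 12.1% for Grap and 1.22% for Shc1. Gab2 no longer met the call rule without TH replicate 2 (log2 fold change −0.57), TH replicate 3 (−0.56) or THCaP replicate 1 (−0.64), and its log2 fold change was −0.43 without THCaP replicate 2. Gab1, its relative, had 1 count over the THCaP libraries and 1 count over the TH libraries and did not enter the test. That is under the limit of 3 counts that a count of 0 allows (at most 0.107 CPM in any library, counting error only), so no level of Gab1 was measurable at this depth.

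The exchange factors lay slightly lower on THCaP, with overlapping libraries. Sos1 had 67.5, 61.0 and 72.0 CPM in THCaP replicates 1 to 3, against 66.8, 82.9 and 89.1 CPM in TH replicates 1 to 3 (log2 fold change −0.25, SE 0.11). TH replicate 1 fell among the THCaP libraries. Sos2 had 67.9, 66.3 and 70.5 CPM in THCaP replicates 1 to 3, against 70.4, 83.8 and 78.6 CPM in TH replicates 1 to 3 (−0.19, SE 0.09). TH replicate 1 was again the lowest TH library. Without it, both met the call rule, at log2 fold changes of −0.37 for Sos1 and −0.25 for Sos2.

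Nras, the GTPase of the set, had 116, 132 and 106 CPM in THCaP replicates 1 to 3, against 99.7, 106 and 106 CPM in TH replicates 1 to 3. The 2 higher THCaP libraries exceeded all TH libraries and THCaP replicate 3 lay within their range (log2 fold change 0.18, SE 0.09). Without THCaP replicate 3 the log2 fold change of Nras was 0.25 and it met the call rule. Rasa1, which switches Ras off, had 86.5, 84.2 and 84.0 CPM in THCaP replicates 1 to 3, against 84.9, 87.8 and 91.1 CPM in TH replicates 1 to 3. Its libraries overlapped (log2 fold change −0.05, SE 0.07), and scaling by library totals turned the sign (0.0023).

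**Figure D2:**
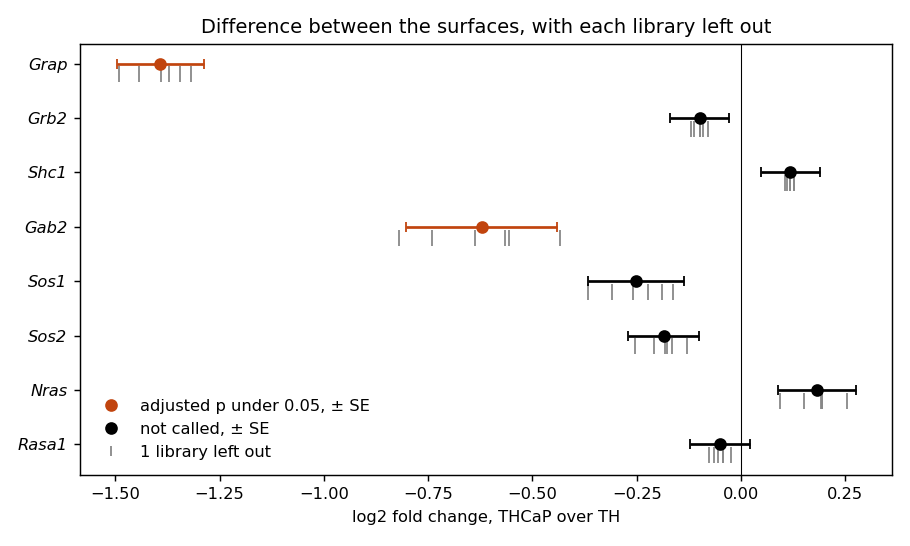
Log2 fold change (THCaP over TH, edgeR) of the 8 tested members, with bars for the SE and grey ticks for the values with 1 library left out. Grap stands apart at −1.39, Gab2 follows at −0.62 with widely spread ticks, and the other 6 lie between −0.25 and 0.18.

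Of the 8 tested members, 2 (Grap and Gab2) were lower at an adjusted p under 0.05 by edgeR's quasi-likelihood test, 0 were higher and 6 did not pass. DESeq2, limma-voom and an unadjusted p under 0.05 in edgeR also gave 0 members higher and 2 lower. Among all 11480 tested genes 23.6% passed in either direction, 11.6% higher and 12% lower. Scaling by library totals alone gave 1904 genes higher and 1063 lower, in place of 1333 and 1376. The number of members lower was 4 without TH replicate 1 and 1 without THCaP replicate 1, TH replicate 2 or TH replicate 3. With THCaP replicate 3 left out, 1 member (Nras) was higher. Groups did not overlap on the TMM scale in 4 of 8 members (Grap, Grb2, Shc1 and Gab2), against 43.4% of all tested genes. Since the members were chosen with this contrast known, nothing is read from these shares. The median absolute log2 fold change was 0.18 for the members and 0.21 for all tested genes. In 6 of the 8 members THCaP replicate 3 was the THCaP library nearest to the mean of TH. The exceptions were Grb2 (THCaP replicate 2) and Rasa1 (THCaP replicate 1).

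Levels of different genes were compared as FPKM, the scale that takes gene length into account. The lengths implied by the deposited FPKM differed from the exonic bases of GENCODE vM21 for some members. They were 5384 against 8514 bases for Sos2, 3713 against 5645 for Shc1 and 9065 against 10594 for Sos1, while Grb2 had 2916 in both. Orders and ratios between genes therefore hold for the deposited lengths only. On THCaP the order of mean FPKM was Grb2 (77.7 ± 1.93), Shc1 (46.4 ± 0.564), Nras (25.0 ± 2.73), Grap (20.8 ± 2.55), Rasa1 (14.3 ± 0.253), Sos2 (12.9 ± 0.431), Gab2 (10.6 ± 2.85) and Sos1 (7.51 ± 0.634; SD, n = 3 each). Neighbours whose libraries overlapped there were Nras and Grap, Sos2 and Gab2, and Gab2 and Sos1. On TH the order was Grb2 (80.3 ± 0.818), Grap (52.6 ± 3.61), Shc1 (41.2 ± 0.724), Nras (21.2 ± 0.67), Gab2 (15.7 ± 2.21), Rasa1 (14.2 ± 0.412), Sos2 (14.1 ± 1.21) and Sos1 (8.61 ± 1.2). There Gab2 overlapped with Rasa1, and Rasa1 with Sos2. Grap thus stood below Shc1 and beside Nras on THCaP, and below Grb2 alone on TH. Grb2 was the most abundant member on both surfaces, and 6.79% of the tested genes had a higher mean FPKM over the 6 libraries.

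The paralogues were also compared as shares of their summed FPKM. Grap made up 21.1%, 18.9% and 23.3% of Grap plus Grb2 in THCaP replicates 1 to 3, against 38.2%, 41.1% and 39.3% in TH replicates 1 to 3. Every THCaP library was below every TH library, and this ratio within a library does not depend on how libraries are scaled. The log2 difference of Grap to Grb2 averaged −1.91 ± 0.19 on THCaP and −0.61 ± 0.09 on TH (SD, n = 3 each). Their sum was 98.5 ± 2.65 FPKM on THCaP and 133 ± 4.34 FPKM on TH. The sum of Sos1 and Sos2 was 20.4 ± 1.06 FPKM on THCaP and 22.8 ± 2.26 FPKM on TH, with overlapping libraries. Adaptor transcripts therefore stood at 4.70, 5.08 and 4.72 per exchange factor transcript in THCaP replicates 1 to 3, against 6.37, 5.64 and 5.59 in TH replicates 1 to 3, again without overlap. Without Grap, the ratio of Grb2 to Sos1 plus Sos2 was 3.82 ± 0.266 on THCaP and 3.55 ± 0.335 on TH and overlapped. Sos1 made up 36.7% ± 1.23 of the Sos transcripts on THCaP and 37.8% ± 2.19 on TH. Nras stood at 1.69, 1.98 and 1.59 per Rasa1 transcript in THCaP replicates 1 to 3, against 1.48, 1.53 and 1.46 in TH replicates 1 to 3. These are ratios of transcripts at the gene lengths of the deposited FPKM, and they do not give protein amounts.

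**Figure D3:**
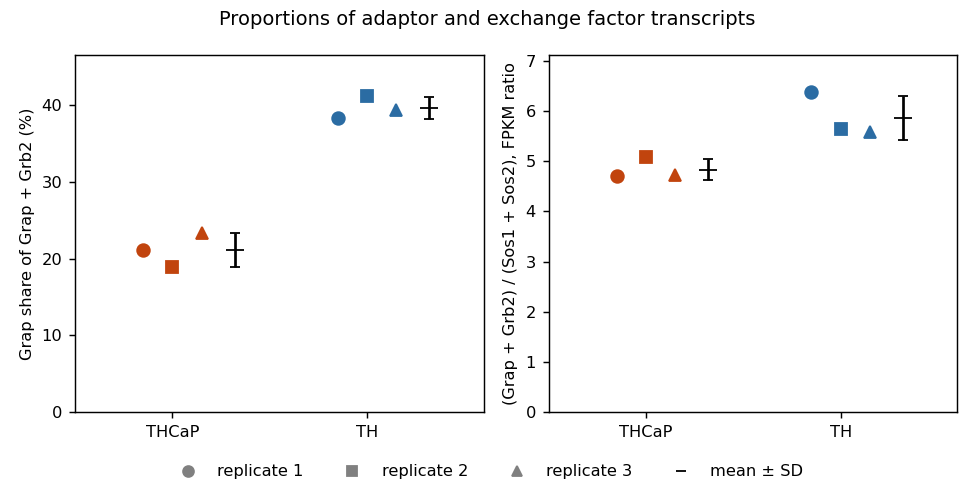
Left, share of Grap in the summed FPKM of Grap and Grb2 (%), and right, FPKM of Grap plus Grb2 divided by that of Sos1 plus Sos2, in THCaP libraries (left of each panel) and TH libraries (right), with mean ± SD (n = 3 each). The Grap share is 18.9% to 23.3% on THCaP and 38.2% to 41.1% on TH, and the ratio is 4.70 to 5.08 on THCaP and 5.59 to 6.37 on TH.

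The genes with a library pattern nearest to that of Grap were Cd274, Phlda1, Slfn2, Layn and Ankrd33b. Likeness was the root mean square difference of log2 CPM, each gene centred on its mean over the 6 libraries. Compared were 8750 other tested genes averaging 10 CPM or more, with counts in every library. Symbols of unnamed gene models and pseudogenes were left out, so ranks hold among named genes. It was 0.09 for Cd274, the checkpoint ligand PD-L1, and 0.12 for Ankrd33b, the fifth of them. Cd274 had 13.7, 13.2 and 17.1 CPM in THCaP replicates 1 to 3, against 32.4, 45.7 and 39.0 CPM in TH replicates 1 to 3. Among the members, Gab2 was nearest to Grap, at a distance of 0.41 and rank 296, and Nras farthest, at 0.81 and rank 6356. Grb2 stood at 0.66 and rank 2959. The distances of the members followed the order of their log2 fold changes given above, so they are no separate result. Likewise, the 5 nearest genes had log2 fold changes of −1.47 to −1.19, near that of Grap.

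The other genes of the pathway were taken from 7 lists, written from general knowledge of Ras signalling but with earlier results of these data known. Of 112 genes, 109 were in the table and 91 were tested. Of these, 23 fell and 7 rose on THCaP and 61 did not pass edgeR's test. This share of calls, 33%, stands beside the 23.6% of all tested genes given above, and nothing is read from the difference. Their median log2 fold change was −0.11 (0.0064 for all tested genes). Under scaling by library totals alone 22 fell and 13 rose. The number that fell was 12 without TH replicate 2, 9 without TH replicate 3 and 9 without THCaP replicate 1. The number that rose was 0 without each of these 3 libraries, 3 without THCaP replicate 2 and 12 without THCaP replicate 3.

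Among 17 tested adaptors and docking proteins related to Grb2, Shc1 and the Gab proteins, 7 fell and 1 rose, with a median log2 fold change of −0.25. The number that fell was 1 without THCaP replicate 1, 4 without TH replicate 2 and 3 without TH replicate 3. Nck1, an SH2 and SH3 adaptor of the actin cytoskeleton, had 13.6 ± 0.155 CPM on THCaP and 21.2 ± 0.17 CPM on TH (−0.64 on the log2 scale, SE 0.09, edgeR adjusted p = 0.00422). The inhibitory docking protein Dok3 fell by 0.56 on the log2 scale (SE 0.14, edgeR adjusted p = 0.0238, or 0.0752 without THCaP replicate 1). Dok3 had 184, 128 and 134 CPM in TH replicates 1 to 3. Without TH replicate 1 its log2 fold change was −0.38 (edgeR adjusted p = 0.0439). Lat2, the transmembrane adaptor of myeloid and B cells, fell by 0.42 (SE 0.08, edgeR adjusted p = 0.00952, or 0.0509 without THCaP replicate 1). Sh2b1, the only one of this list that rose (0.30, SE 0.08, edgeR adjusted p = 0.0308), was named after its value was seen. Its adjusted p was 0.135 without THCaP replicate 1, 0.0686 without THCaP replicate 2, 0.0965 without TH replicate 2 and 0.107 without TH replicate 3. Lat, named after its value was seen, fell about as far as Grap (−1.38 on the log2 scale, SE 0.30, edgeR adjusted p = 0.014). It was low, at 0.856 ± 0.211 CPM on THCaP and 2.22 ± 0.552 CPM on TH. Without THCaP replicate 1 it did not pass, as Nck1 was then the only gene of this list that fell. Grap2, the other relative of Grap, did not have enough counts to be tested.

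Of 11 tested exchange factors for Ras, Rap and Ral other than Sos1 and Sos2, 6 fell and 0 rose, with a median log2 fold change of −0.40. The number that fell was 3 without TH replicate 3. The count of 0 was the same with DESeq2, with limma-voom and at an unadjusted p under 0.05 in edgeR, all on the same 6 libraries. Among all tested genes 11.6% passed as higher and 12% as lower, and nothing is read from the counts of this list. Rasgef1b had 20.6 ± 4.62 CPM on THCaP and 46.2 ± 5.62 CPM on TH, 2.24-fold lower (−1.16 on the log2 scale, SE 0.16, edgeR adjusted p = 0.00347). Ralgds, which passes the signal from Ras to Ral, had 70.9 ± 5.41 CPM on THCaP and 111 ± 6.44 CPM on TH (−0.65, SE 0.09, edgeR adjusted p = 0.00337). Rasgrp3, a diacylglycerol-binding exchange factor for Ras and Rap, was abundant, at 301 ± 57.9 CPM on THCaP and 460 ± 23.5 CPM on TH (−0.61, SE 0.13, edgeR adjusted p = 0.0123, or 0.0532 without TH replicate 3). Sos1 and Sos2 had the same sign, at −0.25 and −0.19, without passing the test over all 6 libraries.

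Of 12 tested GTPase-activating proteins and Sprouty-type inhibitors other than Rasa1, 4 fell (2 without TH replicate 3) and 1 rose (median −0.25). Spred3 (−0.72, SE 0.13, edgeR adjusted p = 0.00771) and Spry2 (−0.70, SE 0.14, edgeR adjusted p = 0.0119, or 0.0514 without TH replicate 2 and 0.0583 without TH replicate 3), inhibitors of Ras to ERK signalling, fell. Rasa4, a calcium-responsive GTPase-activating protein, had 129 ± 20.4 CPM on THCaP and 198 ± 9.49 CPM on TH (−0.62, SE 0.11, edgeR adjusted p = 0.00786). Rasa3, named after its value was seen, rose (0.40, SE 0.08, edgeR adjusted p = 0.0128, or 0.0521, 0.0609 and 0.0707 without THCaP replicate 1, TH replicate 2 and TH replicate 3), at 147 ± 8.3 CPM on THCaP and 112 ± 7.63 CPM on TH.

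Among 13 tested GTPases of the Ras, Rap and Ral families other than Nras, 2 fell and 1 rose, with a median of −0.07. Rras fell by 0.53 on the log2 scale (SE 0.12, edgeR adjusted p = 0.0141). Its adjusted p was 0.051 without TH replicate 2, 0.0585 without TH replicate 3 and 0.0512 without THCaP replicate 1. Rala fell by 0.32 (SE 0.08, edgeR adjusted p = 0.0236, or 0.0671, 0.0828 and 0.126 without the same 3 libraries). The gene that rose, Mras, was named after its value was seen and was low, at 1.22 ± 0.19 CPM on THCaP and 0.598 ± 0.172 CPM on TH (edgeR adjusted p = 0.0412). Mras passed without THCaP replicate 3, and without each of the other 5 libraries its adjusted p was 0.0625 to 0.154. Hras, a close relative of Nras, did not pass (0.31, SE 0.10, edgeR adjusted p = 0.0555, or 0.0176 without THCaP replicate 3, 0.0407 with DESeq2 and 0.0325 with library totals) and was named after its value was seen.

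Of 13 tested Raf, MEK and ERK genes and scaffolds, which act downstream of Ras, 1 fell, 0 rose and 12 did not pass (median −0.08). DESeq2 and limma-voom also called 0 higher, and 2 were higher at an unadjusted p under 0.05 in edgeR. Without THCaP replicate 3, 2 fell and 1 rose. The gene that fell over all 6 libraries was Mapk7, which encodes ERK5 (−0.33, SE 0.07, edgeR adjusted p = 0.0158, or 0.0599, 0.0669 and 0.0782 without TH replicate 2, TH replicate 3 and THCaP replicate 1). Among 17 phosphatases, lipid kinase subunits, ubiquitin ligases and other partners that bind these adaptors, 2 fell and 4 rose (median 0.05), and 7 rose with library totals. The number that rose was 0 without THCaP replicate 1, TH replicate 2 or TH replicate 3 and 2 without THCaP replicate 2, and the number that fell was 1 without each of these 4 libraries. The inositol phosphatase gene Inppl1 (SHIP2) had 205 ± 17.5 CPM on THCaP and 292 ± 20.0 CPM on TH (−0.51, SE 0.09, edgeR adjusted p = 0.00755). The lipid kinase subunit gene Pik3cb fell by 0.35 (SE 0.10, edgeR adjusted p = 0.0287, or 0.115, 0.109, 0.0922 and 0.0618 without TH replicate 2, TH replicate 3, THCaP replicate 1 and THCaP replicate 2). Other genes of these enzyme types rose, namely Inpp5d, Pik3cd and Pik3cg, and were named after their values were seen. Their log2 fold changes were 0.24 (SE 0.07, edgeR adjusted p = 0.0384), 0.28 (SE 0.08, edgeR adjusted p = 0.0389) and 0.30 (SE 0.07, edgeR adjusted p = 0.0217). Was, the Wiskott-Aldrich syndrome protein that binds Grb2 and drives actin branching, rose by 0.40 (SE 0.10, edgeR adjusted p = 0.0235, or 0.0991, 0.0839 and 0.076 without TH replicate 2, TH replicate 3 and THCaP replicate 1).

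Of 19 genes for receptors that recruit Grb2 or Shc1, 8 were tested, 1 fell and 0 rose, while Csf1r alone was called higher by DESeq2 (adjusted p = 0.021) and limma-voom (adjusted p = 0.0485) and was the 1 gene higher at an unadjusted p under 0.05 in edgeR. Csf1r, the receptor most abundant here, had 1250 ± 105 CPM on THCaP and 1005 ± 118 CPM on TH (log2 difference 0.31, SE 0.10, edgeR adjusted p = 0.0504). Its libraries did not overlap between the surfaces. It did not pass over all 6 libraries and did pass in 9 of 16 alternatives. The integrin chain gene Itgb1 had 198 ± 4.93 CPM on THCaP and 199 ± 11 CPM on TH (edgeR adjusted p = 0.982). The gene that fell, Axl, was below 5 CPM and was named after its value was seen (−0.89, SE 0.25, edgeR adjusted p = 0.0341), at 1.77 ± 0.46 CPM on THCaP and 3.27 ± 0.643 CPM on TH. Axl passed without THCaP replicate 3, and without each of the other 5 libraries its adjusted p was 0.0556 to 0.131.

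**Figure D4:**
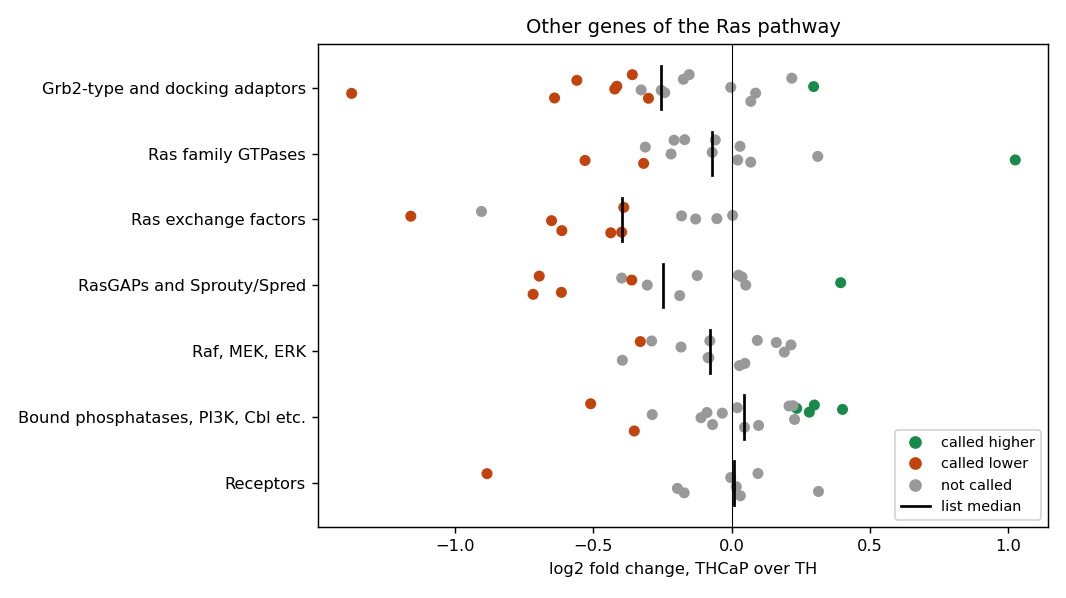
Log2 fold change (THCaP over TH, edgeR) of the 91 tested pathway genes outside the members, by list, with genes called higher or lower at an adjusted p under 0.05 in colour and a black bar at each list's median. The medians run from −0.40 for the exchange factors to 0.05 for the bound phosphatases, lipid kinases and other partners.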

How the data were processed

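RNA of 6 Raw264.7 libraries was sequenced from total RNA. The authors deposited raw counts of reads per gene symbol and FPKM values. The submitters' processing notes name the tools fastp, HISAT2 and HTSeq and the build mm10. Tool versions, gene annotation and strand setting were not given in the sources used here. Overlapping genes can share reads that cannot be told apart. The deposited FPKM scale counts by gene length and library total, and served for levels between genes.

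THCaP was compared with TH in edgeR 4.0.16 under R 4.3.3 (filterByExpr with a minimum count of 10 and a minimum total of 15, TMM factors, robust quasi-likelihood F test, no covariate, Benjamini-Hochberg over 11480 genes, calls at an adjusted p under 0.05). The SE of a log2 fold change is its size over the root of F. P-values measure the spread between these libraries, which may be technical. Libraries of a surface differed by more than counting noise (chi-square per degree of freedom of at least 3.84), and none was counted as a repeat.

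The members and lists were chosen with earlier results of these data known. Named were all members, up to 3 called genes per list with at least 5 CPM and the largest change (otherwise the 2 most abundant), and the 5 genes nearest to Grap. Others are marked as named after their values were seen. Alternatives were DESeq2 1.42.0, limma-voom 3.58.1, RLE factors, library totals, no filter, a stricter filter (5 CPM in 3 or more libraries), a replicate block, each library left out, and limma on log2(FPKM + 1) or log2(FPKM + 0.1). Coordinates and transcript sequences are those of GENCODE vM21 (GRCm38, the same assembly as mm10).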

Additional observations from a re-analysis of the deposited data

How the results depend on the processing

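Grap was lower on THCaP and past the threshold in all 16 alternatives. Its log2 fold changes were −1.49 to −1.32 without each library and −1.40 to −1.30 otherwise. As Grap was chosen with this difference in these libraries known, its passing is a description and no separate support. Of the 8 tested members, 7 kept their sign in every alternative, and Rasa1 changed it with library totals (0.0023) and on log2(FPKM + 1) (0.0023, with or without a filter) and log2(FPKM + 0.1) (0.0025). Itgb1, near 0 throughout, changed sign with library totals (0.0499), on log2(FPKM + 1) with or without a filter (0.0497) and log2(FPKM + 0.1) (0.051), and without single libraries (−0.048 to 0.031). The median log2 fold change of all tested genes was 0.0064, and 0.0588 with library totals. On log2(FPKM + 1) it was 0.0589, or 0.0060 without a filter, and on log2(FPKM + 0.1) it was 0.0645. The cause of the sign changes was not tested. The log2 difference of Grap to Grb2 ranged from −2.004 to −1.814 on THCaP and from −0.66 to −0.57 on TH without each library.

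The number of members called lower was 1 on log2(FPKM + 1), on log2(FPKM + 0.1) and without an FPKM filter, where Gab2 was not called, and 1 to 4 without each library. The number called higher was 0 to 1 without each library. Pathway genes called higher were 7, against 11 with DESeq2, 13 with library totals, 11 on log2(FPKM + 1), 11 on log2(FPKM + 0.1) and 0 to 12 without each library. Those called lower were 23, against 13 on log2(FPKM + 1) without a filter and 9 to 30 without each library. Over all genes 291 to 2145 were called higher and 465 to 2020 lower without each library, and 766 higher and 528 lower on log2(FPKM + 1) without a filter. Of 19 called list genes with values above, 6 stayed past the threshold in all 16 alternatives and none changed sign. Lat, Inpp5d, Pik3cd and Pik3cg are not among these 19. Mras and Axl were not tested under the stricter filter of 5 CPM, nor on log2(FPKM + 1) or log2(FPKM + 0.1) with a filter on mean FPKM. Axl was also not called on log2(FPKM + 1) without a filter.

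Replicate numbers did not pair the libraries (correlations of deviations −0.02, −0.072 and 0.06 for numbers 1, 2 and 3). With the replicate block, Grap had a log2 fold change of −1.40, 1424 genes passed as higher and 1457 as lower, and 0 members were higher and 2 lower, while Sh2b1 was no longer called (adjusted p = 0.0509). With 3 libraries a surface, differences of the size seen in Sos1, Sos2 and Nras depended on single libraries.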
